A study of Homo sapiens with 6 samples.

Results

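The APOBEC3 family of cytidine deaminases was examined in a breast cancer cell line with raised SRPK2, a protein kinase of the SR splicing factors. Its 7 human members, APOBEC3A, APOBEC3B, APOBEC3C, APOBEC3D, APOBEC3F, APOBEC3G and APOBEC3H, were taken by symbol from a table of 29710 genes, and all 7 were found. Of these, 5 had enough reads to be tested. APOBEC3D had between 1 and 8 reads in a library and APOBEC3H between 0 and 2, and both fell below the filter on low counts. The cells were MDA-MB-231, an established triple-negative breast cancer line. They either overexpressed SRPK2 with a FLAG tag (3 biological replicates, called the SRPK2 libraries) or carried the empty vector (3 biological replicates). RNA was measured by strand-specific paired-end sequencing of bulk cells, so fewer cells expressing a gene and less RNA per cell cannot be told apart. Which promoter drove the vector, how long it had been present and whether the lines were clonal is not given in the sources used here.

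APOBEC3 enzymes remove the amino group from cytosine in single-stranded DNA and leave uracil. They are known for hypermutating the DNA copies of retroviruses and for restraining retrotransposons, and in breast cancer APOBEC3A and APOBEC3B are the members most often linked to clustered C-to-T and C-to-G mutations in the tumour genome. Each catalytic domain holds a zinc ion through a histidine and a pair of cysteines, next to a glutamate that carries out the reaction. The genes stand in a tandem array that arose by duplication, and several are inducible by interferon.

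The zinc-site coding sequences are shown because they show how far the members share sequence, and so where short reads from one member can match another. They were read from GENCODE 29 on GRCh38, plus strand, 5′ to 3′. Capitals mark the codons of the histidine, the glutamate and the pair of cysteines.
APOBEC3A site 1 (chr22:38961420-38961530, exon 4) and APOBEC3B site 2 (chr22:38991365-38991475, exon 6): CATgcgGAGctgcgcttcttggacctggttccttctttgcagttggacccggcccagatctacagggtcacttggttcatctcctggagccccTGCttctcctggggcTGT
APOBEC3B site 1 (chr22:38985833-38985937, exon 3) and APOBEC3F site 1 (chr22:39044962-39045066, exon 3): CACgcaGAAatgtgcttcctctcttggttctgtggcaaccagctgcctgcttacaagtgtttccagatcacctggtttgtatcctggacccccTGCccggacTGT
APOBEC3C site 1 (chr22:39017787-39017891, exon 3): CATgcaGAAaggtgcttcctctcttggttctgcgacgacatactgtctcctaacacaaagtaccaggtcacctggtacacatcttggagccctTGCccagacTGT
APOBEC3D site 2 (chr22:39031715-39031819, exon 6) and APOBEC3F site 2 (chr22:39052095-39052199): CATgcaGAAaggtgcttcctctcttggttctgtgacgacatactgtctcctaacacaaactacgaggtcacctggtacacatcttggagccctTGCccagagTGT
APOBEC3G site 2 (chr22:39086312-39086416, exon 6): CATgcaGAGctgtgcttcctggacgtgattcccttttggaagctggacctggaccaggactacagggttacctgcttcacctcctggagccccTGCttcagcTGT

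The only site of APOBEC3A and the second site of APOBEC3B were identical over all 111 bases. The first sites of APOBEC3B and APOBEC3F were identical over 105 bases, as were the second sites of APOBEC3D and APOBEC3F. The site of APOBEC3C matched these last sequences at 101 of 105 bases, a difference of 4. Over whole annotated transcripts, 18.4% of the 100-base stretches of APOBEC3A also occurred in another member, against 25.1% for APOBEC3B, 8.73% for APOBEC3D, 13.3% for APOBEC3F and 5.05% for APOBEC3G. For APOBEC3D the share that also occurred in any other gene was 80.2%, mostly in the overlapping gene CTA-150C2.22 described below. No 100-base stretch of APOBEC3C or APOBEC3H was shared with another gene. For 50-base stretches the shares with another member were 24.5% for APOBEC3A, 37.8% for APOBEC3B and 1.14% for APOBEC3C. They were 14.8% for APOBEC3D, 20.8% for APOBEC3F, 7.06% for APOBEC3G and 0.0% for APOBEC3H. Counts of the members that share stretches are uncertain where the authors' counting could split or drop such reads.

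The libraries were deep and of like size. The SRPK2 libraries held 31140537, 35262735 and 36908878 reads assigned to genes, against 35698295, 33590410 and 36225361 in the empty-vector libraries. Levels are given in CPM, the reads of a gene over those of its library after TMM scaling. SRPK2 itself averaged 252 ± 41 CPM in the SRPK2 libraries and 38.6 ± 2.27 CPM in the empty-vector libraries (SD, n = 3 each), a 6.52-fold difference (edgeR adjusted p = 2.94e-08). Reads of the introduced and the endogenous gene could not be told apart. Across 16515 tested genes, 63 rose and 12 fell at an adjusted p under 0.05. Without SRPK2 replicate 2 the same test called 1403 genes, so values without that library are given where they bear on a result. VIM, CD44, AXL, CAV1 and EGFR, which mark this mesenchymal-like line, were all expressed, and the hormone receptor genes ESR1 and PGR were close to 0. The receptor gene ERBB2 averaged 51.4 CPM with SRPK2 and 47.1 CPM with the empty vector, without overlap, and the luminal factor gene GATA3 averaged 15.1 CPM with SRPK2 and 14.9 CPM with the empty vector. PTPRC, the defining leukocyte marker, averaged 0.194 CPM in the SRPK2 libraries and 0.166 CPM in the empty-vector libraries. The summed level of the leukocyte markers, mostly from CD14 and CD68, ranged over 9 to 10.5 CPM in the SRPK2 libraries and 9.81 to 10.8 CPM in the empty-vector libraries. The 3 fibroblast markers summed to 8.18 to 8.81 CPM with SRPK2 and 5.96 to 6.78 CPM with the empty vector, with 0 of 3 past the threshold, and their part in the results was not tested.

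None of the 5 tested members rose or fell with SRPK2 at an adjusted p under 0.05 (edgeR quasi-likelihood test with Benjamini-Hochberg adjustment over all tested genes), against 0.454% of all tested genes. DESeq2 and limma-voom also called 0 members. At an unadjusted p under 0.05 there was 1 member, APOBEC3C, against 17.2% of all tested genes. The log2 fold changes of the tested members, SRPK2 over empty vector, ran between -0.21 and 0.14, with a median of 0.01, beside a median of 0 over all tested genes. Positive values were found for 3 members and negative values for 2. In 1 member, again APOBEC3C, every SRPK2 library lay above every empty-vector library, against 11.5% of all tested genes (20.1% were without overlap in either direction).

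**Figure D1:**
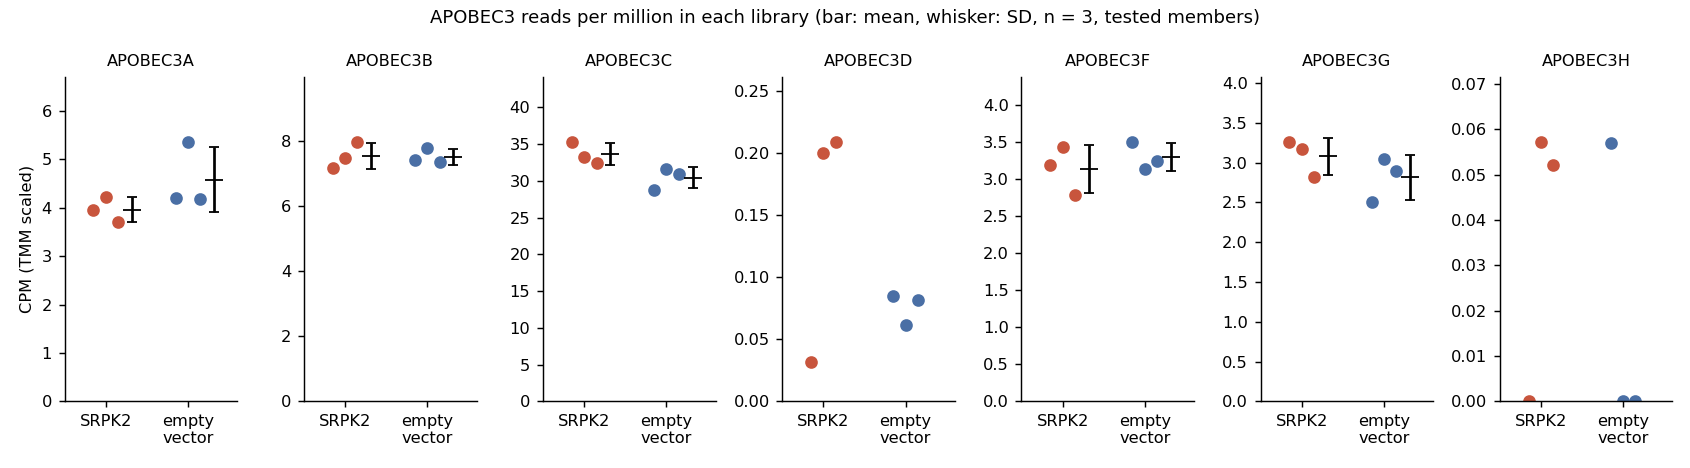
CPM of each APOBEC3 member (vertical axes, each starting at 0) in the 3 SRPK2 libraries and the 3 empty-vector libraries (points), with the mean and SD for the 5 tested members. The SRPK2 libraries lie above the empty-vector libraries for APOBEC3C alone among the tested members, and the groups overlap for the other tested members.

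The order of the levels was read per length, from the FPKM values that the authors deposited (fragments scaled to gene length and library depth). Over all 6 libraries APOBEC3C ranged over 9.71 to 12.17 FPKM and averaged 11 FPKM, above 77.9% of 16321 protein-coding genes. APOBEC3B followed with a range of 3.45 to 3.96 FPKM and a mean of 3.61 FPKM, and APOBEC3A with 1.48 to 2.0 FPKM and a mean of 1.64 FPKM. These 3 ranges did not overlap. APOBEC3F, at 0.5 to 0.6 FPKM, and APOBEC3G, at 0.42 to 0.55 FPKM, did overlap and lay below APOBEC3A in every library. APOBEC3D averaged 0.04 FPKM and APOBEC3H 0.02 FPKM, both at values that a few reads produce.

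The order of APOBEC3F and APOBEC3G depended on the length by which reads were divided. The deposited FPKM values imply a length of 5.74 kb for APOBEC3F and 5.92 kb for APOBEC3G. The transcripts with the longest coding sequence in GENCODE 29 are shorter, at 2.69 kb and 1.83 kb. On the FPKM scale the log2 ratio of APOBEC3F to APOBEC3G averaged 0.17 (SD 0.18 over 6 libraries) and was above 0 in all 6. Per kilobase of the transcript with the longest coding sequence it averaged -0.43 (SD 0.19) and was above 0 in none. On that scale APOBEC3F stood at 1.04 to 1.3 and APOBEC3G at 1.36 to 1.78 CPM per kb. The order of APOBEC3C, APOBEC3B and APOBEC3A was the same on both scales, at 11.4, 4.09 and 2.89 CPM per kb.

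**Figure D2:**
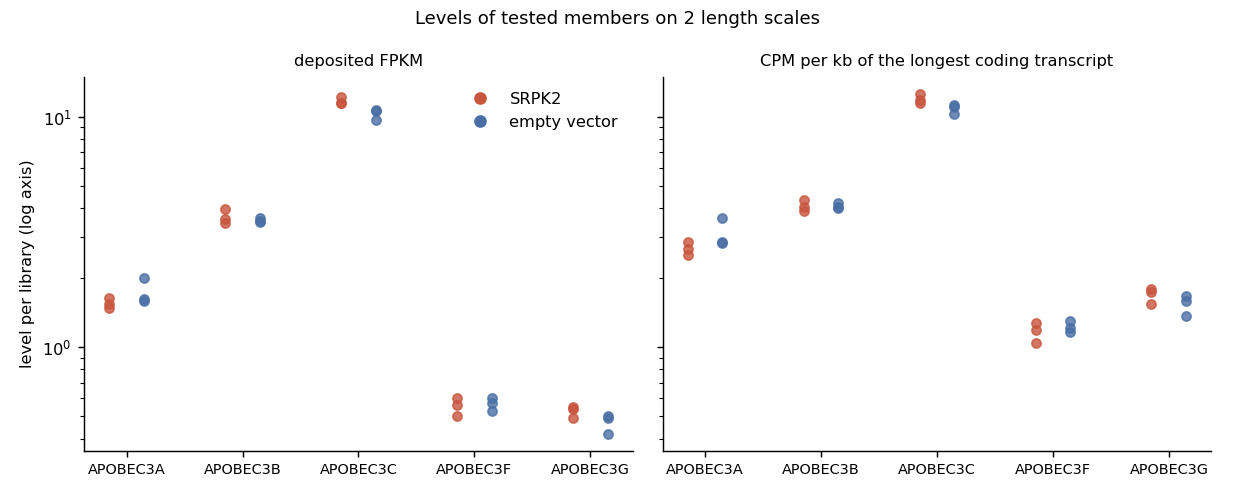
Level of the 5 tested members in each library (points, log axis), with SRPK2 libraries left of empty-vector libraries. The left panel gives deposited FPKM. The right panel gives CPM per kb of the transcript with the longest coding sequence, titled there as the longest coding transcript. APOBEC3C lies highest on both scales, and APOBEC3F and APOBEC3G change places between them.

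APOBEC3C (ENSG00000244509.4, chr22:39014083-39020352, plus strand) has 1 catalytic domain and restricts some retroviruses weakly. It held 1107, 1166 and 1240 reads in the SRPK2 libraries, against 1011, 1027 and 1135 reads in the empty-vector libraries. In CPM these were 35.3, 33.3 and 32.4 with SRPK2, against 28.8, 31.6 and 31 with the empty vector. The lowest SRPK2 library stood just above the highest empty-vector library, so the groups did not overlap but nearly touched. The mean was 33.7 ± 1.53 CPM with SRPK2 and 30.5 ± 1.51 CPM with the empty vector (SD, n = 3 each), a log2 fold change of 0.14 (SE 0.06, 95% interval 0.01 to 0.27). This did not pass the threshold (edgeR unadjusted p = 0.0329, adjusted p = 0.25). Without SRPK2 replicate 2 the log2 fold change was 0.15 (edgeR adjusted p = 0.183), and leaving out each library in turn gave 0.10 to 0.17. In FPKM the gap was slightly wider, at 12.17, 11.43 and 11.51 with SRPK2 against 9.71, 10.56 and 10.72 with the empty vector. The median difference over all genes with a mean of at least 0.5 FPKM was 0.03 in log2(FPKM + 1). In the edgeR test the median over all tested genes was 0.

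APOBEC3B (ENSG00000179750.16, chr22:38982347-38992804, plus strand) is a nuclear enzyme with a pair of zinc-binding domains, of which the carboxy-terminal one is active, and it is often raised in breast tumours. It held 225, 262 and 306 reads with SRPK2, against 261, 253 and 269 reads with the empty vector. In CPM it stood at 7.18, 7.49 and 7.98 in the SRPK2 libraries, against 7.42, 7.79 and 7.35 in the empty-vector libraries. The empty-vector values all fell inside the range of the SRPK2 values. The means were 7.55 ± 0.403 CPM with SRPK2 and 7.52 ± 0.237 CPM with the empty vector (SD, n = 3 each). The log2 fold change was 0.01 (SE 0.09, 95% interval -0.18 to 0.19, edgeR adjusted p = 0.965), closer to 0 than in all but 4.98% of tested genes. Its sign turned when single libraries were left out, over a range of -0.04 to 0.04.

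APOBEC3A (ENSG00000128383.13, chr22:38952741-38992778, plus strand) has 1 catalytic domain, is a strong DNA mutator, and is best known from myeloid cells and keratinocytes. It held 124, 148 and 142 reads with SRPK2, against 148, 174 and 153 reads with the empty vector. In CPM these were 3.96, 4.23 and 3.70 with SRPK2, against 4.21, 5.36 and 4.18 with the empty vector. SRPK2 replicate 2 lay just above both of the lower empty-vector libraries, and empty-vector replicate 2 stood well above all others. The means were 3.97 ± 0.264 CPM with SRPK2 and 4.58 ± 0.672 CPM with the empty vector (SD, n = 3 each). The log2 fold change was -0.21 (SE 0.13, 95% interval -0.48 to 0.07, edgeR adjusted p = 0.404), the largest in size among the tested members. Leaving out each library in turn gave -0.27 to -0.09.

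APOBEC3F (ENSG00000128394.17, chr22:39040604-39053910, plus strand) and APOBEC3G (ENSG00000239713.9, chr22:39077005-39087743, plus strand) each have a pair of zinc-binding domains. Both are packaged into HIV particles that lack Vif, the viral protein that targets them for degradation. APOBEC3F held 100, 120 and 107 reads with SRPK2, against 123, 102 and 119 reads with the empty vector. Its CPM values, 3.19, 3.43 and 2.79 with SRPK2 against 3.5, 3.14 and 3.25 with the empty vector, overlapped. Its log2 fold change was -0.08 (SE 0.13, 95% interval -0.35 to 0.2, edgeR adjusted p = 0.78). Without SRPK2 replicate 3, its lowest library, the value was 0.00.

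APOBEC3G held 102, 111 and 108 reads with SRPK2, against 88, 99 and 106 reads with the empty vector. In CPM it stood at 3.26, 3.17 and 2.82 in the SRPK2 libraries, against 2.5, 3.05 and 2.9 in the empty-vector libraries. The lowest of all 6 was empty-vector replicate 1, and the groups overlapped through SRPK2 replicate 3. The log2 fold change was 0.13 (SE 0.13, 95% interval -0.16 to 0.42, edgeR adjusted p = 0.635). It was thus about as large as that of APOBEC3C, but it rested on far fewer reads.

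The read numbers set the precision. Counting error alone gives a coefficient of variation of 3.0% for APOBEC3C, 6.17% for APOBEC3B, 8.22% for APOBEC3A, 9.46% for APOBEC3F and 9.89% for APOBEC3G at their mean reads. Between replicates, APOBEC3C varied by 4.54% with SRPK2 and 4.95% with the empty vector. For APOBEC3A the figures were 6.65% with SRPK2 and 14.7% with the empty vector. APOBEC3F and APOBEC3G varied between replicates by 5.55% to 10.3%, close to their counting error.

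APOBEC3D (ENSG00000243811.12, chr22:39021113-39033276, plus strand) is another member with a pair of zinc-binding domains and activity against HIV lacking Vif. It held 1, 7 and 8 reads with SRPK2, against 3, 2 and 3 reads with the empty vector. SRPK2 replicates 2 and 3 were highest, and SRPK2 replicate 1 was the lowest of all 6, so the groups overlapped. Summed over the group this was 16 reads with SRPK2 (exact Poisson 95% interval 9.15 to 26.0) and 8 reads with the empty vector (3.45 to 15.8), intervals that cover counting error only and overlap each other. APOBEC3H (ENSG00000100298.16, chr22:39097224-39104067, plus strand), a member with 1 domain whose protein stability differs between human haplotypes, held 0, 2 and 2 reads with SRPK2, against 2, 0 and 0 reads with the empty vector. In sum these were 4 reads with SRPK2 (1.09 to 10.2) and 2 reads with the empty vector (0.242 to 7.22), and 3 reads in a library correspond to 0.0783 to 0.0958 CPM. In an edgeR fit without the filter on low counts neither was called (unadjusted p = 0.19 and adjusted p = 0.647 for APOBEC3D, unadjusted p = 0.531 and adjusted p = 0.804 for APOBEC3H). At this depth only large differences in either gene could have been detected.

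The count of APOBEC3D stands beside that of an overlapping gene. CTA-150C2.22 (ENSG00000284554.2, chr22:39014363-39033276, plus strand) runs through APOBEC3C and APOBEC3D, is annotated as protein coding, and shares 2104 of the 2528 exonic bases of APOBEC3D, or 83.2%. It was singled out after its values were seen. It held 70, 63 and 81 reads with SRPK2, against 68, 53 and 80 reads with the empty vector, many more than APOBEC3D in every library. Its log2 fold change was 0.09 (SE 0.17, 95% interval -0.27 to 0.45, edgeR adjusted p = 0.805), and its groups overlapped. The division of reads over the shared exons is not given in the sources used here. The low count of APOBEC3D is uncertain for that reason. APOBEC3C shares only 17 exonic bases with this gene. APOBEC3A and APOBEC3B share 348 exonic bases on the same strand, 14.8% of the exonic bases of APOBEC3A and 18.4% of those of APOBEC3B.

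**Figure D3:**
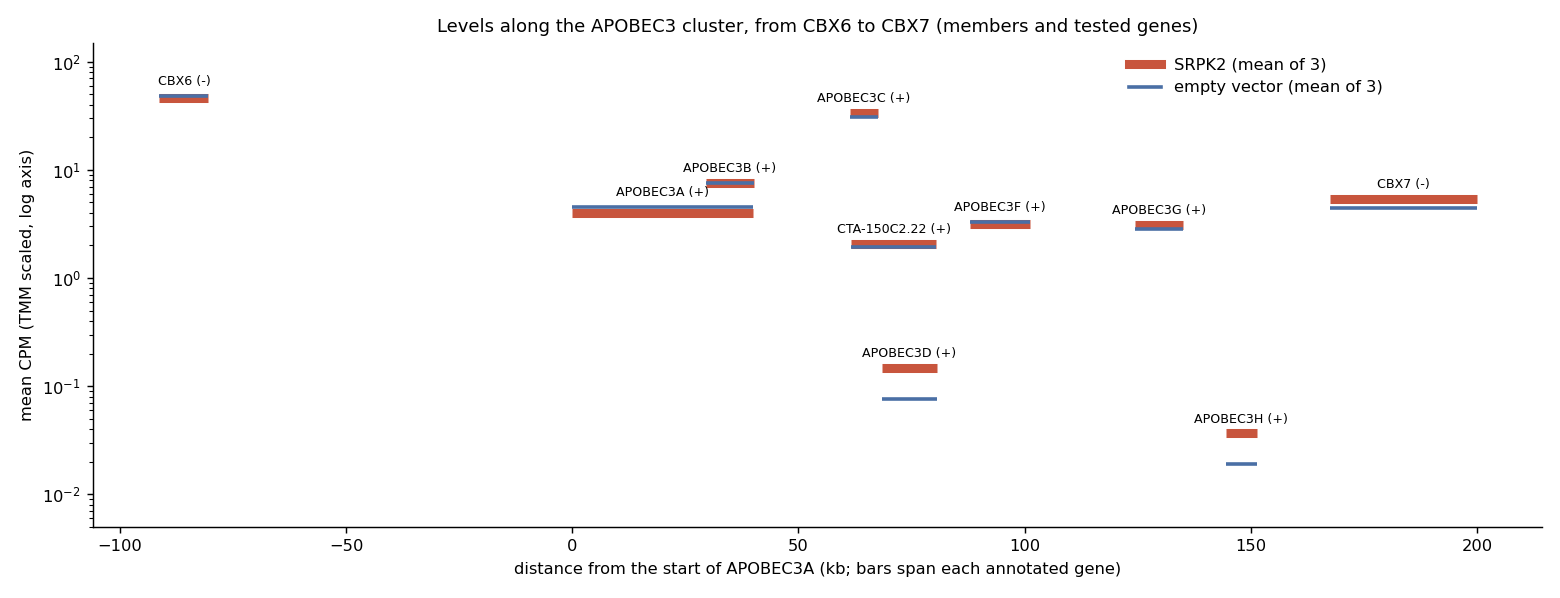
Mean CPM (log axis) of the APOBEC3 members and the tested genes between CBX6 and CBX7, against distance from the start of APOBEC3A in kb; bars span each annotated gene, thick for SRPK2 and thin for empty vector, and signs give the strand. APOBEC3C stands highest within the cluster, and APOBEC3D lies far below CTA-150C2.22, which covers it.

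The make-up of the family's transcript pool was led by APOBEC3C. Its share of the summed FPKM of the 7 members was 66.6%, 63.9% and 63.7% in the SRPK2 libraries, against 61.1%, 61.3% and 63.2% in the empty-vector libraries. APOBEC3A took 8.37%, 9.11% and 8.19% with SRPK2, against 10%, 11.6% and 9.55% with the empty vector. Neither share overlapped between the groups, APOBEC3C being higher and APOBEC3A lower with SRPK2, but shares of 1 total are bound to each other and were not tested. In CPM, 20.1% of all tested genes were without overlap in either direction, and APOBEC3A itself overlapped. APOBEC3B took 20.3% ± 1.54 with SRPK2 and 21.3% ± 0.625 with the empty vector (SD, n = 3 each), with overlap. The ratio of APOBEC3C to APOBEC3A in FPKM was 7.95, 7.01 and 7.78 with SRPK2, against 6.11, 5.28 and 6.62 with the empty vector. The summed FPKM of the family was 18.27, 17.89 and 18.06 with SRPK2, against 15.89, 17.24 and 16.97 with the empty vector, without overlap. In TMM-scaled CPM the sums were 52.9, 51.9 and 50 with SRPK2, against 46.6, 51.0 and 48.8 with the empty vector, and these overlapped.

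**Figure D4:**
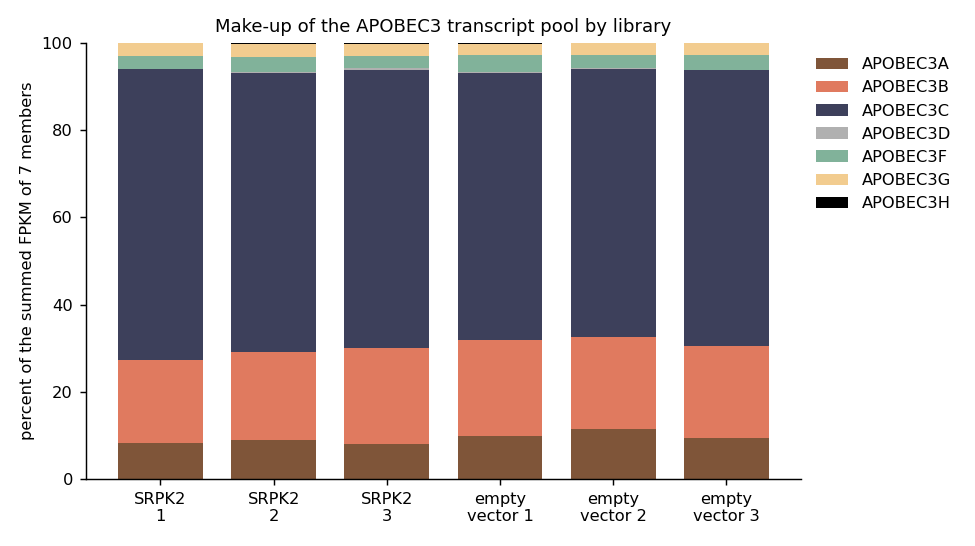
Percent of the summed FPKM of the 7 APOBEC3 members taken by each member (stacked bars) in the 3 SRPK2 libraries and the 3 empty-vector libraries. APOBEC3C takes 63.7% to 66.6% with SRPK2 and 61.1% to 63.2% with the empty vector.

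Genes that act around the family were read from lists. Among relatives and cofactors of the wider APOBEC group, APOBEC1, APOBEC2 and APOBEC4 were not in the table used here. Both tested genes, CDA, a cytidine deaminase of free nucleosides, and RBM47, an RNA-binding cofactor of APOBEC1 editing, were abundant and overlapped between the groups. CDA averaged 89.2 ± 7.03 CPM with SRPK2 and 86.3 ± 8.45 CPM with the empty vector (SD, n = 3 each; log2 fold change 0.05, edgeR adjusted p = 0.767). RBM47 averaged 40.1 ± 0.481 CPM with SRPK2 and 39.7 ± 0.82 CPM with the empty vector (log2 fold change 0.01, edgeR adjusted p = 0.919).

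Uracil left in DNA by these enzymes is removed by UNG and repaired through abasic sites. Of 18 tested genes of uracil excision and abasic site repair, 0 rose and 0 fell by edgeR, DESeq2 or limma-voom with all 6 libraries, 5 had an unadjusted p under 0.05, against 17.2% of all tested genes, and 12 had negative values, with a median of -0.07. PCNA, the sliding clamp, averaged 206 ± 17.8 CPM with SRPK2 and 235 ± 21.1 CPM with the empty vector (log2 fold change -0.19, SE 0.07, edgeR adjusted p = 0.228). It passed the threshold without SRPK2 replicate 2 (-0.27, edgeR adjusted p = 0.0321). There 1 of 18 genes of the list fell, against 852 of 16772 tested genes. PCNA also passed without the filter on low counts (edgeR adjusted p = 0.0391). There too 1 of 18 fell, against 607 of 29710 tested genes. FEN1, the flap endonuclease, averaged 186 ± 7.97 CPM with SRPK2 and 207 ± 5.65 CPM with the empty vector (-0.15, SE 0.05, edgeR adjusted p = 0.2). The SRPK2 libraries lay below all empty-vector libraries for FEN1, MAD2L2 and RAD18, 3 of 18 genes, against 8.69% of all tested genes.

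Of 23 tested regulators of APOBEC3 transcription, such as NF-κB, IRF and FOXM1-complex genes, 0 rose and 0 fell by edgeR, DESeq2 or limma-voom with all 6 libraries, and 6 had an unadjusted p under 0.05, against 17.2% of all tested genes. Their median log2 fold change was 0.07. The most abundant was FOXM1, a cell-cycle transcription factor, at 187 ± 7.76 CPM with SRPK2 and 178 ± 6.8 CPM with the empty vector (edgeR adjusted p = 0.492). In 6 of the 23 genes, among them STAT2, IRF1, NFKB2 and RBL2, every SRPK2 library lay above every empty-vector library, against 11.5% of all tested genes. In 1 gene, TEAD4, every SRPK2 library lay below (log2 fold change -0.14, edgeR adjusted p = 0.315), against 8.69% of all tested genes. STAT2, a transcription factor of the interferon response, was named after its values were seen. It stood 0.24 higher on the log2 scale (SE 0.06, edgeR adjusted p = 0.12). Without SRPK2 replicate 2 it stood 0.28 higher and passed the threshold (edgeR adjusted p = 0.0166). There 1 of 23 regulators rose, against 551 of 16772 tested genes. STAT2 also passed without the filter on low counts (edgeR adjusted p = 0.0124). There too 1 of 23 rose, against 390 of 29710 tested genes.

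Of 15 tested host factors of the Vif ligase and partners of APOBEC3 ribonucleoprotein particles, 0 rose and 0 fell by edgeR, DESeq2 or limma-voom with all 6 libraries, and 3 had an unadjusted p under 0.05, against 17.2% of all tested genes. Their median was -0.06. Without SRPK2 replicate 2, edgeR called 4 of them: MOV10, an RNA helicase, rose (0.20, adjusted p = 0.0472), and ELOB, RNF7 and UBE2F, of the ubiquitin ligase machinery, fell (-0.36, -0.31 and -0.23). Over all 16772 genes tested without that library, 551 rose and 852 fell. Without the filter on low counts ELOB and RNF7 fell (-0.23 each, edgeR adjusted p = 0.00748 and 0.017). There 607 of 29710 tested genes fell. MOV10, ELOB, RNF7 and UBE2F were named after their values were seen. YBX1, an abundant RNA-binding protein, averaged 1200 ± 71.5 CPM with SRPK2 and 1280 ± 36.7 CPM with the empty vector (edgeR adjusted p = 0.423). PABPC1, the poly(A)-binding protein, averaged 976 ± 26.7 CPM with SRPK2 and 1010 ± 18.3 CPM with the empty vector (edgeR adjusted p = 0.604).

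Restriction factors outside the family included genes that rose. Of 23 tested, 5 rose and 0 fell, against 0.381% of all tested genes that rose and 0.0727% that fell. The list was chosen with earlier results of these data known, so its counts beside those of all genes are a description and no independent evidence. MOV10 was counted in this list and also among the Vif ligase and partner genes. The median was 0.16, 19 of 23 values were positive, against 8451 of 16515 over all tested genes, and 13 genes had every SRPK2 library above every empty-vector library, against 11.5%. OAS1, which makes the activator of RNase L, averaged 9.77 ± 0.778 CPM with SRPK2 and 5.56 ± 0.312 CPM with the empty vector (log2 fold change 0.81, SE 0.09, edgeR adjusted p = 0.00198). RSAD2, the antiviral enzyme viperin, averaged 22.1 ± 2.28 CPM with SRPK2 and 14.8 ± 0.648 CPM with the empty vector (0.58, SE 0.08, edgeR adjusted p = 0.0045). MX1, a GTPase against incoming viruses, averaged 41 ± 0.977 CPM with SRPK2 and 28.5 ± 2.61 CPM with the empty vector (0.52, SE 0.07, edgeR adjusted p = 0.00357). ZC3HAV1, which binds CpG-rich viral RNA, averaged 215 ± 10.1 CPM with SRPK2 and 156 ± 2.5 CPM with the empty vector (0.47, SE 0.05, edgeR adjusted p = 0.00188). The other riser was HERC5, the ISG15 ligase, named after its values were seen (0.30, SE 0.05, edgeR adjusted p = 0.0136).

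The upper 95% bounds of the 5 tested APOBEC3 members lay between 0.07 and 0.42. The lower bound of OAS1, 0.61, lay above all of them, but those of RSAD2, MX1, ZC3HAV1 and HERC5, between 0.20 and 0.41, lay below the upper bound of APOBEC3G, and that of HERC5 also below the upper bound of APOBEC3C, 0.27. The difference between the family and these genes was not itself tested. The 5 factors were taken because they passed the threshold, so lower bounds above 0 followed from that choice. Of the 23 tested factors of the list, 10 overlapped between the groups. The list's count of risers was 3 to 9 when each library was left out in turn. It was 9 of 23 without SRPK2 replicate 2, against 551 of 16772 tested genes. Without empty-vector replicate 1 it was 3 of 23, against 24 of 16810 tested genes. With limma on log2 of the deposited FPKM it was 4 of 21 with the filter at 0.5 FPKM, against 41 of 13243 tested genes. Without a filter it was 0 of 24 on that scale, against 13 of 29256 tested genes. OAS1 lost its call on that scale, with a log2 fold change of 0.29 with a pseudocount of 1 (limma adjusted p = 0.09) and 0.71 with a pseudocount of 0.1 (limma adjusted p = 0.0909). RSAD2 missed the threshold without empty-vector replicate 1 (adjusted p = 0.0604), and HERC5 without SRPK2 replicate 1 (0.074) or any of empty-vector replicates 1 (0.124), 2 (0.05 after rounding) and 3 (0.0542).

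**Figure D5:**
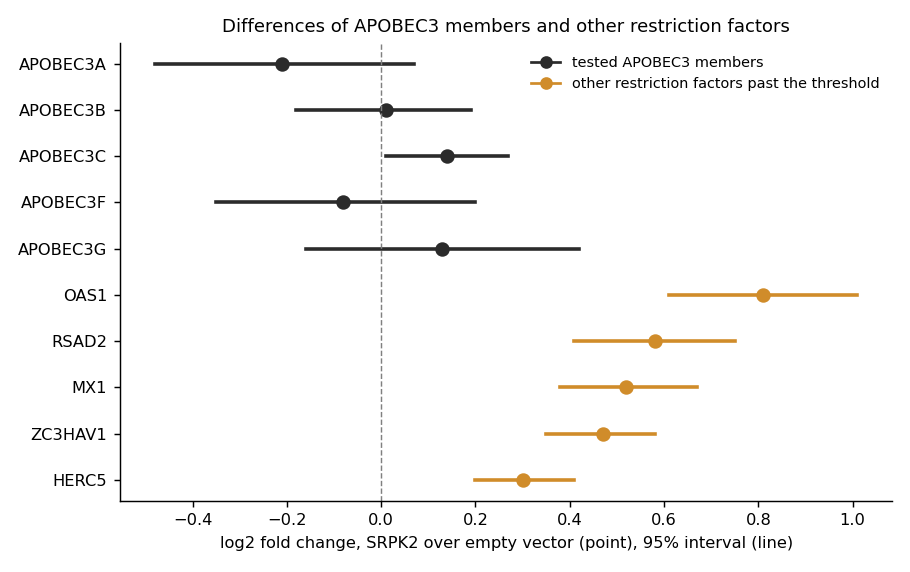
Log2 fold change, SRPK2 over empty vector (points), with 95% interval (lines), for the 5 tested APOBEC3 members and for the 5 other restriction factors past the threshold, which were drawn because they passed. The members' points lie between -0.21 and 0.14, and those of the other factors between 0.30 and 0.81.

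The genes around the cluster gave no call either. Of 11 tested neighbours, 0 rose and 0 fell by edgeR, DESeq2 or limma-voom, 4 had an unadjusted p under 0.05, against 17.2% of all tested genes, and the median was 0.10. CBX6, the polycomb gene before APOBEC3A, averaged 45.8 ± 1.76 CPM with SRPK2 and 48.1 ± 2.41 CPM with the empty vector (log2 fold change -0.07, edgeR adjusted p = 0.525). CBX7, the polycomb gene after APOBEC3H, averaged 5.39 ± 0.581 CPM with SRPK2 and 4.41 ± 0.178 CPM with the empty vector, without overlap (0.28, SE 0.11, edgeR adjusted p = 0.232). SUN2, a nuclear envelope gene, also lay above the empty-vector libraries (0.13), and RPL3, a ribosomal protein gene, below them (-0.18). Thus 2 of 11 neighbours lay above, against 11.5% of all tested genes, and 1 of 11 below, against 8.69%. APOBEC3B-AS1, on the opposite strand to APOBEC3B, held 2, 1 and 2 reads with SRPK2, against 1, 0 and 1 reads with the empty vector.

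The genes whose log2 CPM followed each member most closely over the 6 libraries were taken by Pearson's r. The comparison covered 11087 genes with a mean CPM of at least 5, or 11086 for APOBEC3B and APOBEC3C. For APOBEC3C the closest genes were SART3 (r = 0.985), TRIM21 (0.973) and ZNF311 (0.961). For APOBEC3B they were ZCCHC8 (0.985), CSE1L (0.984) and RPA1 (0.984), and for APOBEC3A they were SAAL1 (0.995), NME3 (0.99) and HDDC3 (0.989). TBP (0.986), VRK3 (0.976) and GPR137B (0.976) were nearest to APOBEC3F, and SDC2 (0.991), NVL (0.981) and CD82 (0.979) to APOBEC3G. The lists shared no gene. These values describe 6 points that share groups and libraries, chosen as the highest of many.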

How the data were processed

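RNA sequencing data of 6 libraries were put into groups from the titles. Total RNA was cleared of DNA and sequenced in paired-end mode, per the labels' protocols. Per the submitters' processing notes, bcl2fastq, FastQC and HISAT2 were used with GRCh38. Which counting tool was used, whether by strand and on which annotation release, is not given in the sources used here. The authors deposited whole-number counts per gene, not normalized, for 29710 genes, and FPKM values, rounded, for 29256 genes.

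The test was edgeR's two-sided quasi-likelihood F test (version 4.0.16, R 4.3.3) after filterByExpr and TMM scaling, with the group as the only term and Benjamini-Hochberg adjustment over all 16515 tested genes, which held 99.9% of the reads. The biological coefficient of variation was 5.85%. Each SE was the size of the log2 fold change divided by the root of its F. Replicates differed by more than sampling noise (chi-square over its degrees of freedom, 4.44 to 15.2). Coordinates, exon overlaps and sequences came from GENCODE 29 through unversioned identifiers. The members and lists were chosen with earlier results of these data known. The text names the members, SRPK2, called genes of each list (up to 4 by size of change, or else the 2 most abundant), neighbours of the cluster and up to 3 genes most like each tested member; some of these are not reported here. Alternatives were library size alone, RLE size factors, other filters, DESeq2 1.42.0, limma-voom and limma 3.58.1 on log2 FPKM plus 1 or 0.1, a gene length correction, the replicate number as a block, and leaving out each library. The scripts were tested on simulated counts. Figures used Python 3.11.15 and matplotlib 3.10.9.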

Additional observations from a re-analysis of the deposited data

How the results depend on the processing

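The number of APOBEC3 members past the threshold was 0 under every alternative without the replicate number as a block, including each left-out library. Replicate numbers were shared by the groups, but same-numbered libraries deviated together with correlations of only 0.08, 0.23 and 0.17, so they were not taken as pairs, although each library correlated best with its own number, a hint from the data. With the replicate block 1 member was called, APOBEC3C at 0.14 (edgeR adjusted p = 0.0277), and with block and gene length correction also 1, APOBEC3C at 0.17 (edgeR adjusted p = 0.00492). With the block 13 of 23 other restriction factors and 9 of 23 regulators rose, and 6 of 18 uracil repair genes fell. Of 15 Vif ligase and partner genes 2 rose and 7 fell, and of 11 neighbours 3 rose and 1 fell. Over all 16515 tested genes, 1753 rose and 2146 fell with the block. The block called 3899 genes in all, 45% of them higher with SRPK2 (84% without it), and 3366 with the length correction, 32.7% higher. Genes called numbered 997 with no filter on low counts (39.1% higher), 132 with DESeq2 (65.2%), 18 with log2(FPKM + 1) and no filter (72.2%), and 27 to 1403 when 1 library was left out, the highest without SRPK2 replicate 2 (39.3%). The cause was not tested. When 1 library was left out, APOBEC3B ranged over -0.04 to 0.04 and APOBEC3F over -0.15 to 0.00. APOBEC3C, APOBEC3A and APOBEC3G kept their direction in every alternative that tested them. The log2 ratio of APOBEC3F to APOBEC3G was 0.17 in FPKM and -0.43 per kilobase of transcript, an alternative chosen after the values were seen. A mean CPM of at least 5 kept only APOBEC3B and APOBEC3C, and a mean FPKM of at least 0.5 left out APOBEC3G. SRPK2 ranged over 2.53 to 2.81.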
